A study of Mus musculus with 6 samples.

Results

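The 10 serotonin receptor genes Htr1a, Htr1b, Htr1d, Htr1f, Htr2a, Htr2c, Htr3a, Htr4, Htr5a and Htr7 were followed in midbrain dopaminergic neurons with and without knockdown of Satb1, the gene of a nuclear protein that loops chromatin and prefers DNA rich in A and T. They were selected by symbol from 23079 genes in a table of read counts, with earlier results of the knockdown comparison known. Their differences between the groups are therefore given as a description, with no p-value of their own. Where a member is said to be called, the call is its place in the fit over all genes, repeats the comparison it was chosen with and supports nothing. The table holds 14 serotonin receptor genes, and the remaining 4 are Htr2b, Htr3b, Htr5b and Htr6.

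The libraries came from C57BL/6 mice aged 4 months of the Dat bacTRAP line, a transgenic line with a tagged ribosomal protein in cells that express the dopamine transporter. All mice received adeno-associated virus of serotype 1 that carried EGFP with a short hairpin RNA, which was scrambled in the 3 control libraries and directed against Satb1 in the 3 knockdown libraries. Tissue was cut out of 1 mm slices at the ventral tegmental area and the substantia nigra pars compacta, and the labels do not say which region, or which of the 3 mice of the experiment, each library holds. The sources used here name neither a ribosome capture step nor the promoter of the hairpin. The p-values below measure only the spread between libraries, which may be technical.

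Serotonin reaches the midbrain from the raphe nuclei, and its receptors fall into classes by how they signal. The Htr1 and Htr5 receptors couple to Gi/o proteins, which lower cyclic AMP and open inwardly rectifying potassium channels. The Htr2 receptors couple to Gq and phospholipase C, and Htr4, Htr6 and Htr7 to Gs and adenylyl cyclase. Htr3a and Htr3b are subunits of a cation channel and are the exception among receptors that otherwise act through G proteins. In dopamine neurons and their inputs, Htr2c is best known for restraining firing and dopamine release, and Htr1b for acting on axon terminals.

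The deposited counts summed to between 147486754 and 170351145 per library, so that 1 count was worth between 0.00557 and 0.00672 counts per 1000000 (CPM, here scaled with the trimmed mean of M-values, TMM). Satb1 had 351, 349.6 and 319.8 CPM in controls 1 to 3, against 82.9, 166 and 61.2 CPM in knockdowns 1 to 3. The groups did not overlap, the log2 fold change was -1.72 ± 0.26 (SE; adjusted p = 0.00106, edgeR), and knockdown library 2 kept the most Satb1. Markers of dopamine neurons (10 genes, Th and Slc6a3 among them) summed to 12763 to 14044 CPM in controls and 8692 to 10917 CPM in the knockdown. Of the 10, 6 were lower at an adjusted p under 0.05, against 12.6% of all tested genes. Above 100 CPM, where Th and Slc6a3 lie, 33.6% of tested genes were lower. The log2 fold changes of Ddc (-0.20), Nr4a2 (0.25), Foxa2 (-0.31) and Drd2 (-0.05) did not pass. Of 8 oligodendrocyte markers, 7 were higher, against 8.48% of all tested genes. Their sums were 385 to 439 CPM in controls and 598 to 673 CPM in the knockdown. The part that this shift in cell markers has in the values below was not tested. In such bulk libraries fewer cells of a type and less RNA per cell cannot be told apart.

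Htr5a, Htr7 and Htr2c held most of the receptor signal per unit of length. Together the 10 genes came to between 61.8 and 64.1 CPM in the control libraries. For a comparison between genes, CPM was divided by the kilobases of annotated exon. On that scale Htr5a was highest in controls, at 4.39 ± 0.0810 CPM per kilobase (SD, n = 3), which is the 56.1st percentile of tested genes. Htr7 (2.49 ± 0.464) and Htr2c (2.22 ± 0.234 CPM per kilobase, each SD, n = 3) followed, and their control ranges overlapped. Htr1a (0.732 ± 0.165) and Htr2a (0.647 ± 0.139 CPM per kilobase, each SD, n = 3) were next, again with overlapping ranges, and both lay below every Htr2c value. The other members fell between 0.0189 CPM per kilobase for Htr3a, the 1.7th percentile, and 0.266 for Htr4, the 18.1st percentile. From Htr5b through Htr4, Htr2b, Htr6, Htr1b and Htr1d to Htr1f, each gene overlapped its neighbour in the order, so these ranks are not resolved.

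**Figure D1:**
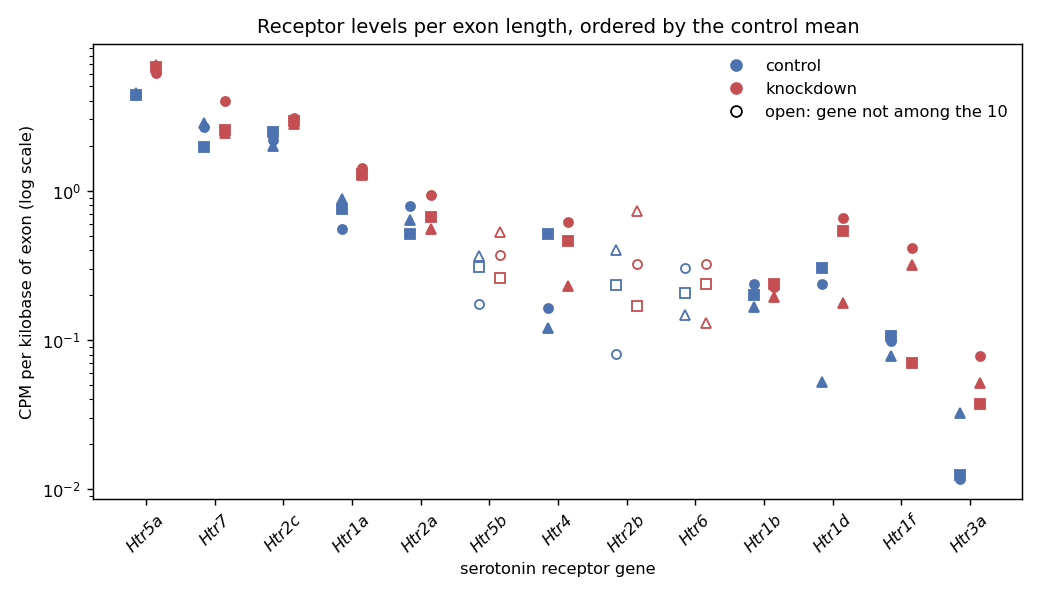
CPM per kilobase of exon (log scale) for 13 serotonin receptor genes, ordered by the control mean, with 1 point per library (circle, square and triangle for libraries 1, 2 and 3). Htr5a, Htr7 and Htr2c lie at 1.97 CPM per kilobase or above in every library, while the points of Htr4, Htr1d and Htr2b spread widely within a group.

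By class, the Gi/o-coupled members held 48.4% to 51.1% of the summed level per kilobase in the control libraries, the Gq-coupled members 23.3% to 26.6% and the Gs-coupled members 22.2% to 26.3%. The channel subunit Htr3a held at most 0.286% in controls. Htr5a alone gave 38.4% to 39.7% of the sum in controls. In knockdown libraries 1 to 3 its share was 35%, 43.4% and 46.4%, so that library 1 was below and the other two above the controls. The summed level of the members was 11.2 to 11.3 CPM per kilobase in controls and 15 to 17.5 in the knockdown.

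All 10 genes had a log2 fold change above 0 in the knockdown, between 0.12 and 1.54, with a median of 0.65. Over all 16766 tested genes the median was 0.01 and 51.2% were above 0. With total counts in place of TMM these medians were 0.82 and 0.18. Of the 10 members 3, Htr1a, Htr2c and Htr5a, were called higher at an adjusted p under 0.05 (edgeR quasi-likelihood test), 7 did not pass and 0 were called lower. Among all tested genes 21.1% were called, 8.48% as higher and 12.6% as lower. The knockdown libraries lay above all controls for 4 members, the 3 called genes and Htr3a, against 17.9% of tested genes. Htr3a was tested only because its knockdown libraries passed the low-count filter, which favours such a lack of overlap. Since the members were chosen with this comparison known, nothing is read from these shares.

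Direction also went with level across the transcriptome. Among tested genes with a mean under 1 CPM, where Htr1b, Htr1f and Htr3a lie, the median log2 fold change was 0.35. It was 0.17 for genes from 1 to 10 CPM, which include Htr1a, Htr1d, Htr2a, Htr4 and Htr7. From 10 to 100 CPM, the range of Htr2c and Htr5a, it was -0.04, and above 100 CPM, with no receptor, -0.16. In the same order of ranges, 66.6%, 64.6%, 44.3% and 27.9% of genes had a log2 fold change above 0. In the range of Htr2c and Htr5a, 11.1% of genes were called higher and 16.7% lower. From 1 to 10 CPM, the range of Htr1a, 10.3% were called higher and 3.24% lower. The part of level in the receptor values was not tested.

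**Figure D2:**
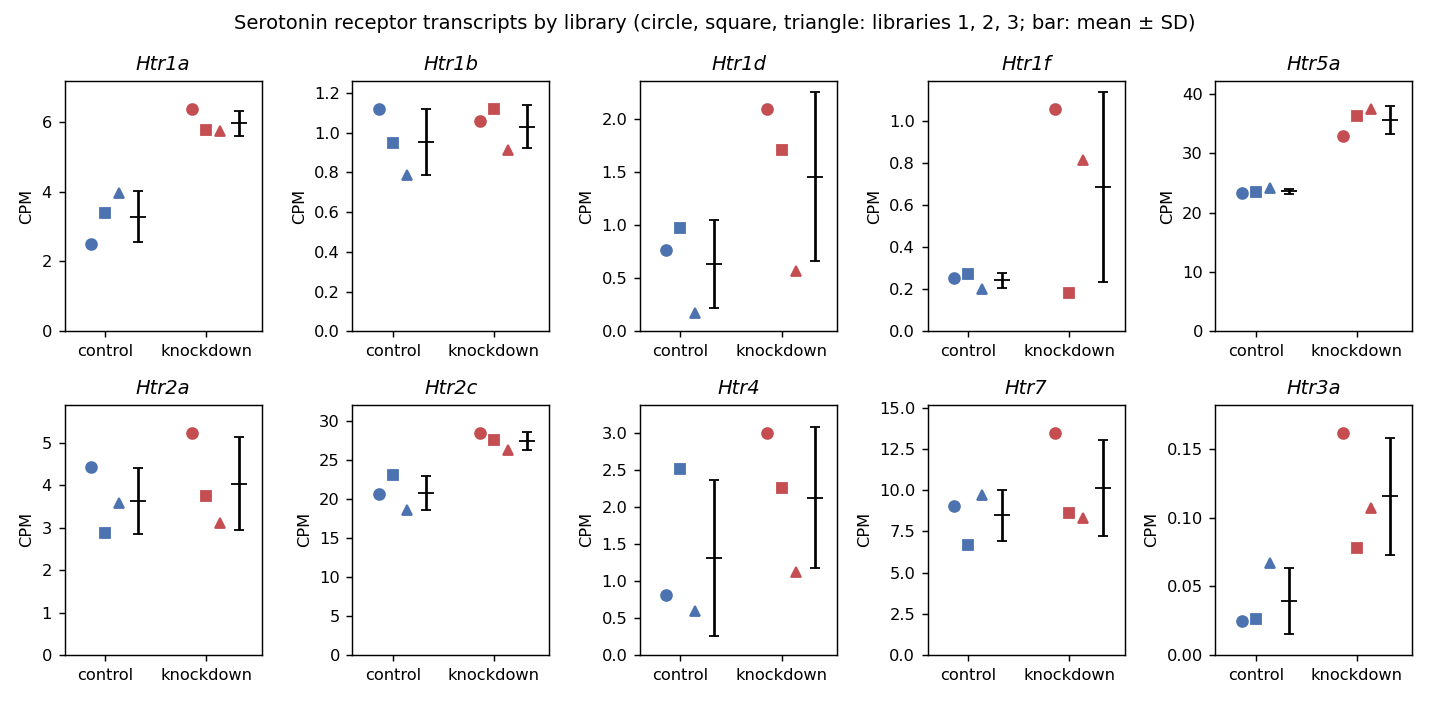
CPM of each of the 10 genes by library, with circle, square and triangle for libraries 1, 2 and 3 and a bar for the mean ± SD (n = 3). Htr1a, Htr5a, Htr2c and Htr3a show no overlap between the groups, whereas Htr1d, Htr1f and Htr4 each have a knockdown library inside or below the control range.

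The bases before the annotated starts of the 3 called genes are shown because these were the members called higher. They come from RefSeq on GRCm38.p6, lie on the plus strand and run 5′ to 3′, and the Htr1a window is shortened to leave out bases that GENCODE places in its exon. The windows are chr13:105443443-105443638 for Htr1a, chr5:27841697-27841946 for Htr5a and chrX:146962263-146962512 for Htr2c. For Htr5a the RefSeq start lies upstream of the GENCODE start at 27842149, so its window does not reach the gene position given below. Capitals mark matches, on either strand, to TATAAA (the TATA box), CCAAT or GGGCGG (the GC box), motifs that did not overlap here.
Htr1a: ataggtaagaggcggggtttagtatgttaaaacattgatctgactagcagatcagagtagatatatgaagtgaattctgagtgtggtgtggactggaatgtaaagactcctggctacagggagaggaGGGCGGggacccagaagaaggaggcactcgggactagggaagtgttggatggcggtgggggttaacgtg
Htr5a: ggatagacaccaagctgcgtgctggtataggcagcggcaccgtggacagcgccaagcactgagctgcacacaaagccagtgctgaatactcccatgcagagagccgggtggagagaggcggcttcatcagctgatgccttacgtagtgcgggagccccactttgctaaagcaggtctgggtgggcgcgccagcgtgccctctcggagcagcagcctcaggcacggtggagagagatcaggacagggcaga
Htr2c: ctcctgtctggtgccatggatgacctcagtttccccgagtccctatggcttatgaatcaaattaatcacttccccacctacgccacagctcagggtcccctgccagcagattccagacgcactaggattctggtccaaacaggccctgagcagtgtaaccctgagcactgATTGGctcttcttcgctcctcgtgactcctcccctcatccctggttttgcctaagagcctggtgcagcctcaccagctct

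The 3 windows had no motif in common. Htr1a held 1 GGGCGG, Htr2c 1 CCAAT on the reverse strand, and Htr5a none of the 3. Windows of 250 bases were read for 8 members, 9 windows in all. Htr3a had no window in the RefSeq table, and Htr4 was left out of this reading. None of the 9 held TATAAA, 3 held CCAAT and 4 held GGGCGG, where 12.4%, 33.8% and 32.7% of 32851 RefSeq windows of this length did. The content of A and T, the bases that SATB1 prefers, was 49.6% in the full 250-base window of Htr1a, of which the bases in its exon are not printed, 44.4% in that of Htr2c and 38% in that of Htr5a, against a median of 47.6% over all windows. Among members that were not called, Htr1b had 47.6%, Htr1f 50.8%, Htr2a 47.2% and the 2 windows of Htr1d 48.4% and 27.6%. Htr7, also not called, had 18%, the 0.6th percentile, and 41 CG dinucleotides against a median of 6. Most of the Htr7 window lies in a GENCODE exon of the gene. A difference between called and other members was not tested.

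Htr5a, a Gi/o-coupled receptor found mainly in the nervous system, varied least between controls. It had 23.3, 23.4 and 24.1 CPM in controls 1 to 3, against 32.9, 36.3 and 37.5 CPM in knockdowns 1 to 3. Every knockdown library was above every control, and the coefficient of variation in controls was 1.84%, where the other members had 10.5% to 80.7%. The means were 23.6 ± 0.435 and 35.6 ± 2.36 CPM (SD, n = 3 each), with a log2 fold change of 0.59 ± 0.11 (SE), or 1.51-fold. It was called higher in each of the 6 fits that left out 1 library, with log2 fold changes from 0.57 to 0.65. The gene (NCBI gene 15563) lies on the plus strand of chromosome 5, at 27842149 to 27855088 in GRCm38, in 2 exon blocks, and shares no exon base with another annotated gene.

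Htr1a, the Gi/o-coupled receptor that also serves as the somatic autoreceptor of serotonin neurons, had the largest log2 fold change of the 3 called members. Htr1a had 2.49, 3.40 and 3.95 CPM in controls 1 to 3, against 6.37, 5.77 and 5.74 CPM in knockdowns 1 to 3. The groups did not overlap, and control library 1 was lowest. The means were 3.28 ± 0.739 and 5.96 ± 0.357 CPM (SD, n = 3 each), and the log2 fold change was 0.86 ± 0.22 (SE), or 1.82-fold. The call was lost without control library 1 (log2 fold change 0.70) or knockdown library 1 (0.82). Htr1a (gene 15550) is a gene of 1 exon on the plus strand of chromosome 13, from 105443639 to 105448122, and overlaps no other annotated gene.

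Markers of serotonin neurons, which hold Htr1a, were measurable in these libraries. Tph2, the enzyme that starts serotonin synthesis in the brain, had 19.3, 36.9 and 22.4 CPM in controls 1 to 3, against 30.4, 15.2 and 26.9 CPM in knockdowns 1 to 3. Control library 2 was highest and knockdown library 2 lowest. The 6 such markers (Tph2, Slc6a4, Fev, Gata2, Gata3 and Slc17a8) summed to 33.5 to 56.1 CPM in controls and 24.9 to 51.5 CPM in the knockdown. None of them passed the edgeR or the DESeq2 test, and 1 was higher at an unadjusted p under 0.05. Their part in the difference of Htr1a was not tested.

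Among the other Gi/o-coupled members, Htr1b, the receptor of axon terminals, had the smallest log2 fold change. It had 1.12, 0.948 and 0.787 CPM in controls 1 to 3, against 1.06, 1.12 and 0.911 CPM in knockdowns 1 to 3. The groups overlapped throughout, and the log2 fold change was 0.12 ± 0.43 (SE). Its exons share 852 bases with the antisense gene D430036J16Rik, and without strand the reads of the 2 genes cannot be separated.

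Htr1d, a close relative of Htr1b, varied within both groups. It had 0.763, 0.974 and 0.168 CPM in controls 1 to 3, against 2.10, 1.71 and 0.565 CPM in knockdowns 1 to 3. Library 3 was the lowest of each group, and knockdown library 3 lay inside the control range. Its log2 fold change was 1.20 ± 0.64 (SE) and ranged from 0.75 to 1.64 when single libraries were left out.

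Htr1f, a Gi/o-coupled receptor targeted by migraine drugs, was split within the knockdown. Controls had 0.252, 0.273 and 0.202 CPM, and knockdown libraries 1 to 3 had 1.06, 0.182 and 0.817 CPM. In counts, knockdown library 2 had 28 reads against 30 to 42 in the controls, while libraries 1 and 3 had 191 and 130. Knockdown libraries 1 and 3 were therefore above every control, and library 2 was below every control. The log2 fold change was 1.5 ± 0.75 (SE).

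Htr2c, a Gq-coupled receptor, had the longest exon sequence of the members. It had 20.6, 23.0 and 18.6 CPM in controls 1 to 3, against 28.5, 27.5 and 26.2 CPM in knockdowns 1 to 3, with no overlap. The means were 20.7 ± 2.19 and 27.4 ± 1.16 CPM (SD, n = 3 each), and the log2 fold change was 0.40 ± 0.12 (SE), or 1.32-fold. The call depended on single libraries. It was lost when control 1 (0.40), control 3 (0.33), knockdown 1 (0.38) or knockdown 2 (0.40) was left out, over values near the full one. Htr2c (gene 15560) spans 234765 bases on the plus strand of chromosome X, from 146962513 to 147197277, in 8 exon blocks. Small RNA genes such as Mir448 and Snora35 lie in its introns and share no exon base with it.

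The choroid plexus is known for very high Htr2c, so its markers were read beside the gene. The 9 such markers summed to 12.2 to 13.6 CPM in controls and 16.5 to 22.6 CPM in the knockdown. Ttr, its most abundant transcript, had 0.541, 0.208 and 0.498 CPM in controls 1 to 3, against 3.63, 1.72 and 2.26 CPM in knockdowns 1 to 3, and was the 1 marker called higher of 8 tested. The groups did not overlap for Ttr, nor for Kl, Kcne2 and Cldn2, which were also higher in the knockdown but did not pass. They overlapped for Kcnj13, Clic6, Aqp1 and Sostdc1. The median log2 fold change of the 8 tested markers was 0.48, and DESeq2 called 2 of them higher. Folr1 was at 0 in control libraries 1 and 3 and knockdown library 1 and reached at most 0.157 CPM. The part of such cells in the difference of Htr2c was not tested.

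Htr2a, the Gq-coupled receptor of classical psychedelics, had 4.43, 2.87 and 3.59 CPM in controls 1 to 3, against 5.25, 3.75 and 3.12 CPM in knockdowns 1 to 3. The groups overlapped, with a log2 fold change of 0.15 ± 0.26 (SE) that went to -0.07 without knockdown library 1. Htr2a and Htr2c, the Gq-coupled members, thus differed in whether their groups overlapped, and the difference between their fold changes was not tested.

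Of the Gs-coupled members, Htr7, which is linked to circadian timing, had the higher level per kilobase. It had 9.03, 6.69 and 9.68 CPM in controls 1 to 3, against 13.5, 8.62 and 8.29 CPM in knockdowns 1 to 3. Only knockdown library 1 was above the control range, and the log2 fold change of 0.26 ± 0.21 (SE) became 0.01 without it. Htr4, best known for its action in gut and hippocampus, had 0.812, 2.52 and 0.592 CPM in controls 1 to 3, against 3.01, 2.26 and 1.12 CPM in knockdowns 1 to 3. Control library 2 was above the other controls and above knockdown libraries 2 and 3, and without it the log2 fold change went from 0.71 ± 0.53 (SE) to 1.6, without passing the test.

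Htr3a, the obligatory subunit of the serotonin-gated channel, was the scarcest member. Its counts were 4, 4 and 10 in controls 1 to 3, against 29, 12 and 17 in knockdowns 1 to 3. The groups did not overlap, at means of 0.0393 ± 0.0242 and 0.115 ± 0.0424 CPM (SD, n = 3 each). Htr3a passed the low-count filter only through its knockdown libraries, so this lack of overlap supports nothing. The log2 fold change of 1.54 had an SE of 1.02, and at these counts the difference did not pass.

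**Figure D3:**
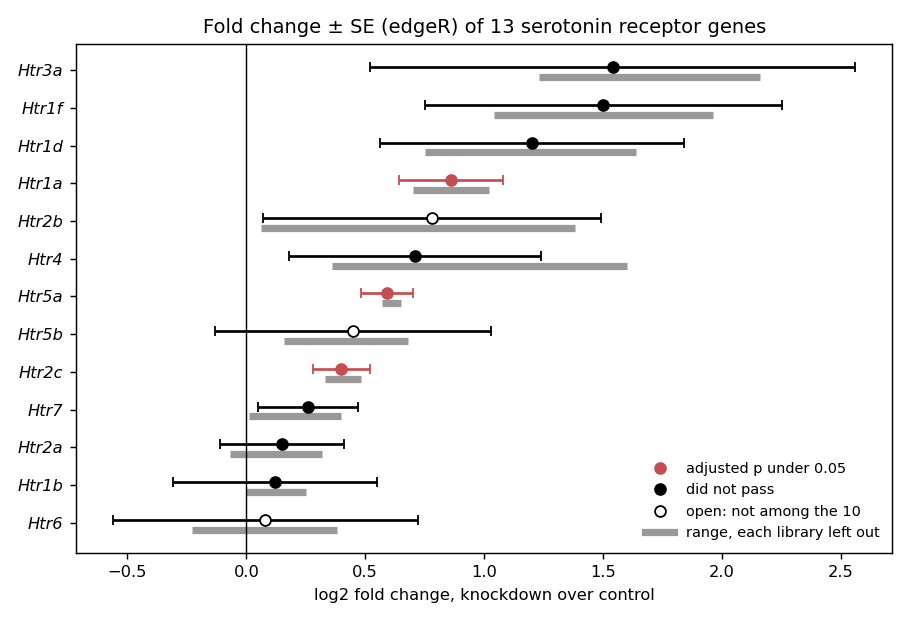
Log2 fold change of knockdown over control with its SE for 13 serotonin receptor genes, with a grey bar for the range when each library is left out in turn and red for genes called at an adjusted p under 0.05. The SEs of the 3 called genes are 0.11 to 0.22, and those of the genes with the largest fold changes, Htr3a, Htr1f and Htr1d, are 0.64 to 1.02.

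The 4 receptor genes that are no members had control means of 0.00713 (Htr3b) to 0.284 (Htr5b) CPM per kilobase. Htr2b, a Gq-coupled receptor, had 0.172, 0.493 and 0.854 CPM in controls and 0.685, 0.358 and 1.56 CPM in the knockdown, and its exons share 252 bases with Psmd1 on the opposite strand. Htr5b had a log2 fold change of 0.45 ± 0.58 and Htr6 one of 0.08 ± 0.64 (SE), each with overlapping groups. Htr3b, the second channel subunit, had between 0 and 10 counts per library and was not tested. None of the 3 tested passed in edgeR or DESeq2, and none had an unadjusted p under 0.05.

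Of 59 tested genes in 6 lists of the serotonin pathway, 11 were lower, 3 higher and 45 did not pass, with a median log2 fold change of -0.09. Over all tested genes 12.6% were lower and 8.48% higher. With total counts in place of TMM, 9 were lower and 9 higher. These lists were drawn up with results of the same data known. The part of the lower dopamine neuron markers in the values below was not tested.

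Transducers of the Gi/o class, to which Htr1a and Htr5a couple, had 4 of 9 genes called lower. Among tested genes with a mean above 100 CPM, where Gnao1, Gnai1 and Kcnj6 lie, 33.6% were called lower, and from 10 to 100 CPM, the range of Gnaz, 16.7% were. Gnao1, the main Go subunit of neurons, fell from 1141 ± 79.6 to 795 ± 57.2 CPM (SD, n = 3 each; log2 fold change -0.52, adjusted p = 0.00164, edgeR). Gnai1 fell by 0.64 on the log2 scale (adjusted p = 0.000592) and Gnaz by 0.59 (adjusted p = 0.00220). Kcnj6, a subunit of the inwardly rectifying potassium channels that Gi/o proteins open, fell by 0.94 (adjusted p = 0.00263). The values of Gnai2 (0.05), Gnai3 (-0.19), Kcnj3 (0.16), Kcnj5 (-0.26) and Kcnj9 (0.24) did not pass.

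Of 8 genes of the Gq branch, which serves Htr2a and Htr2c, 3 were lower, and Gnaq and Plcb4 lie above 100 CPM, where 33.6% of tested genes were. Plcb4, a phospholipase C, fell from 331 ± 38.8 to 169 ± 13.6 CPM (SD, n = 3 each; log2 fold change -0.97, adjusted p = 0.000267). Gnaq fell by 0.46 (adjusted p = 0.00333) and Plcb1 by 0.35 (adjusted p = 0.0460). The call for Plcb1 did not hold with total counts (-0.18), RLE scaling (-0.33) or a minimum mean of 1 CPM (-0.30), nor in 5 of 6 fits that left out 1 library. Gna11, the sister of Gnaq, was at 0.20 and did not pass.

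Of 12 genes of the Gs branch, 1 was lower and 1 higher, where 12.6% and 8.48% of all tested genes were. The protein kinase gene Prkaca fell by 0.40 (adjusted p = 0.00508, edgeR), a call lost with total-count scaling. It lies above 100 CPM, where 33.6% of tested genes were lower. The adenylyl cyclase gene Adcy3 rose by 0.55 (adjusted p = 0.00415, edgeR). Gnas (-0.18) and Gnal (-0.20), the 2 subunits that stimulate the cyclases, did not pass.

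Of 14 tested genes that make, move and degrade serotonin, 2 were lower and 1 higher, where 12.6% and 8.48% of all tested genes were. The 2 lower genes lie above 100 CPM, where 33.6% of tested genes were called lower. Slc18a2, the vesicular transporter of both amines, fell by 0.63 (adjusted p = 0.00219), and Gch1, of the cofactor pathway, by 0.95 (adjusted p = 0.000504). Spr, which completes that cofactor, rose from 25.7 ± 0.620 to 39.5 ± 4.72 CPM (SD, n = 3 each; log2 fold change 0.62, adjusted p = 0.00302). The genes of serotonin neurons, Tph2 (-0.12) and the transporter gene Slc6a4 (-0.26), and the oxidase genes Maoa (0.13) and Maob (0.43) did not pass.

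Of 13 partner proteins of the receptors, Arrb2, an arrestin that binds activated receptors, fell by 0.69 (adjusted p = 0.00177). Cc2d1b, one of a pair of repressors that bind the HTR1A promoter, rose by 0.50 (adjusted p = 0.0209). That call was lost when control 1 or 2 or knockdown 1 or 3 was left out. Its relative Cc2d1a (-0.47), S100a10 (-0.29), a partner of Htr1b and Htr4, and Adarb1 (0.21), an enzyme that edits Htr2c RNA, did not pass.

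**Figure D4:**
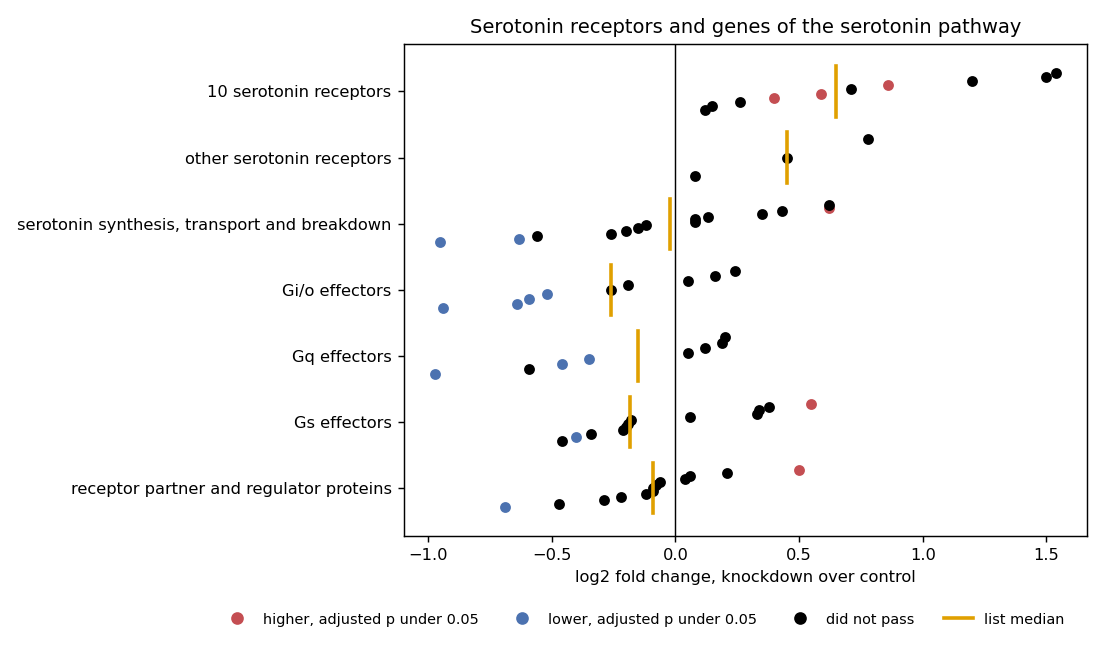
Log2 fold change of knockdown over control for the 10 serotonin receptors and for the tested genes of 6 pathway lists, with 1 point per gene, coloured by the edgeR call, and a vertical bar for each list's median. All receptors lie right of 0, and the blue points, genes called lower, number 4 in the Gi/o list and 3 in the Gq list of 11 in all.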

How the data were processed

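RNA sequencing libraries were grouped, and replicate numbers taken, from their titles (3 control, 3 knockdown). The authors deposited raw read counts per gene, as whole numbers, in 1 table with a column per library. TopHat2 2.0.8 and mm10 (GRCm38) are named in the submitters' processing notes, and how reads were counted (tool, strand, multiple alignments) was not given in the sources used here. Without strand, a gene and its antisense partner cannot be separated.

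The test was edgeR 4.0.16 in R 4.3.3 (quasi-likelihood F-test, 2-sided) on those counts, scaled by TMM and filtered by filterByExpr (minimum count 10, minimum total 15), with Benjamini-Hochberg adjustment over 16766 genes at 0.05. It was tested on simulated data. All 10 members passed the filter, Htr3a only through the knockdown libraries. Standard errors were derived from the F statistic. Exon lengths and positions came from GENCODE M21 (all 14 receptor genes matched), which may differ from the authors' annotation, and promoter windows from RefSeq. Between replicates of a group the chi-square divided by the number of genes was at least 58.5, where sampling noise gives about 1, so no library was counted as a copy.

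The members, lists and tests were chosen with earlier results of these data known. Named genes were the 14 receptor genes, Satb1 and, per pathway list, the called genes with the smallest p (at most 4, or 2 where none was called). Other genes named were chosen after their values were seen. Besides the lists shown, markers of GABA, glutamate and cholinergic neurons, peptide interneurons, ependyma, astrocytes, microglia and vessels were read. Alternatives were RLE and total-count scaling, DESeq2 1.42.0, limma-voom (limma 3.58.1), no low-count filter, a mean of at least 1 CPM, a replicate block and leaving out each library.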

Additional observations from a re-analysis of the deposited data

How the results depend on the processing

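The members called higher were 3 with RLE or total-count scaling, DESeq2, limma-voom, either other filter and the replicate block, and 1 to 3 when a library was left out (1 without control library 1 or knockdown library 1), where fewer samples were fitted. No member was called lower in any setting by edgeR, DESeq2 or limma-voom, and none had a negative value at an unadjusted p under 0.05 (0 of 10). Signs changed only among uncalled genes with a library left out, over ranges of -0.0043 to 0.25 for Htr1b, -0.07 to 0.32 for Htr2a and -0.23 to 0.38 for Htr6. Of other pathway genes, 9 were called higher with total-count scaling, 5 with DESeq2 and 5 with a mean of at least 1 CPM, against 3, and 2 to 4 with a library left out. Those called lower were 10 to 12 with a library left out. With the replicate number as a block, 5 were higher and 19 lower. Deviations of same-numbered libraries correlated at 0.0564, 0.0127 and 0.108. Knockdown libraries 1 and 3 correlated best with the control of their own number, and knockdown library 2 with control library 1 (0.0480). Whether the numbers stand for pairs is not settled by these values, and the main fit did not take them as pairs. At the depth of Htr3a and Htr3b, differences were not resolvable.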

Other observations

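Other receptors for amines and acetylcholine, were taken by symbol after the values were seen, and 21.1% of all tested genes were called. Of 9 adrenergic receptor genes none passed the edgeR test (median log2 fold change 0.30), and of 3 tested histamine receptor genes none did (-0.09). In both families DESeq2 also called 0 genes, and 0 had an unadjusted p under 0.05. Among 5 dopamine receptor genes (median 0.30) Drd1a, the receptor of striatal target neurons, was called higher. Drd1a had 0.689, 0.948 and 0.874 CPM in controls 1 to 3, against 3.50, 3.58 and 1.87 CPM in knockdowns 1 to 3 (log2 fold change 1.83 ± 0.36, SE; adjusted p = 0.00383, edgeR).

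Among 5 muscarinic receptor genes (median -0.04), Chrm1 was called higher and Chrm5 lower. Chrm5, the muscarinic receptor typical of dopamine neurons, had 19.8, 19.8 and 21.2 CPM in controls 1 to 3, against 13.9, 17.0 and 11.9 CPM in knockdowns 1 to 3 (-0.51 ± 0.14, SE; adjusted p = 0.0256). Chrm1 went from 1.28 ± 0.254 to 2.93 ± 1.05 CPM (SD, n = 3 each; adjusted p = 0.0288, edgeR). The markers of cholinergic neurons, Chat and Slc18a3, were both called higher in the same comparison, from 3.83 to 5.47 CPM in sum in controls to between 8.75 and 13.2 CPM in the knockdown, and their part in the receptor values was not tested.

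Of the other marker lists, 0 of 3 GABA neuron markers passed, with sums of 177 to 224 CPM in controls and 190.3 to 289 CPM in the knockdown. Of 2 glutamate neuron markers 0 passed (45.4 to 48.6 against 47.3 to 61.4 CPM). For both lists DESeq2 called 0, and 0 had an unadjusted p under 0.05. Pvalb was the 1 of 5 peptide interneuron markers called higher (sums of 38.2 to 49 against 45.5 to 63.7 CPM), Rarres2 the 1 of 5 for ependyma (31.6 to 32.3 against 36.8 to 45.5 CPM) and Cdh5 the 1 of 9 for vessels (4.99 to 6.36 against 4.35 to 9.77 CPM). Of 8 astrocyte markers 2 were called higher and 1 lower (455 to 559.9 against 481 to 600.3 CPM). Of 9 microglia markers 2 were higher and 1 lower (22.9 to 24.8 against 21.6 to 28.3 CPM). The genes called lower, Slc1a2 and P2ry12, weigh heavily in these sums, with control means of 245 and 18.9 CPM. The median log2 fold change was 0.57 for astrocyte, 1.11 for microglia and 0.79 for vessel markers. It was 0.25 for GABA neuron, 0.13 for glutamate neuron, 0.28 for peptide interneuron and 0.14 for ependyma markers.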
